A study of Mus musculus with 6 samples.

Results

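ErbB receptors are cell surface tyrosine kinases that bind growth factors of the epidermal growth factor (EGF) family. The 10 genes described here are the 4 receptors Egfr, Erbb2, Erbb3 and Erbb4 and the 6 ligands Areg, Ereg, Btc, Hbegf, Tgfa and Nrg1. They were found by exact match of the gene symbol in the authors' annotation, which gave 23 probe sets of 45037 tested, 13 for receptors and 10 for ligands. A probe set is a group of array probes that together give 1 signal value, and every probe set of each gene was kept.

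Total RNA came from the cleared mammary fat pad, which the labels call mammary stroma, of mice aged 4 weeks. There were 3 arrays from Rarb -/- mice (Rarb-null), which lack retinoic acid receptor beta, and 3 from Rarb +/+ littermates (wild type). The description of every sample, in both genotypes, also names ErbB2 in connection with the mice. It does not say whether they carried an ErbB2 transgene, and the sources used here do not state strain, sex, the extent of the Rarb deletion or the number of mice behind an array. P-values therefore measure the spread between these arrays. Signal is the deposited log2 RMA value, 1 log2 unit being a 2-fold difference in signal, and a level is compared between arrays for the same probe set, never between genes. Differences are Rarb-null minus wild type, and group values are means ± SD over 3 arrays.

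The ligands are made as membrane proteins and are cut free by proteases of the ADAM family. Areg, Tgfa and EGF itself bind Egfr, Ereg, Btc and Hbegf bind Egfr and Erbb4, and Nrg1 binds Erbb3 and Erbb4. Erbb2 has no known ligand of its own and works as a partner of the other receptors, while Erbb3 has little kinase activity and signals through its partners. In the mouse mammary gland amphiregulin, the product of Areg, is made by ductal epithelium in response to oestrogen at puberty and acts through Egfr in the surrounding stroma, which is needed for duct elongation.

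The Rarb probe set did not separate the genotypes. Values were 6.50, 6.61 and 7.41 for the Rarb-null group and 6.95, 6.01 and 6.65 for the wild-type group, here as everywhere in the order of replicates 1 to 3. The sources used here do not say if the probes lie inside the deletion, so it checks nothing about the labels. Among the fat cell markers Adipoq, the adiponectin gene, lay between 14.35 and 14.62 on all arrays, near the top of the signal range of 3.25 to 15.3. All 8 fat cell markers had a lower Rarb-null mean (median -0.22 log2), and 0 had an unadjusted p under 0.05 in limma. The pads also carried mammary epithelial signal although they are labelled as cleared: Epcam, an epithelial adhesion gene, read 13.46, 13.46 and 13.30 on Rarb-null and 12.85, 13.61 and 12.71 on wild-type arrays. Wild-type replicate 3 stood apart for the milk protein gene Csn2, at 7.63 against 13.90 to 14.65 on the other 5 arrays, and for the alveolar transcription factor gene Elf5, at 8.99 against 11.63 to 12.10. Skeletal muscle markers were likewise uneven, with a list mean of 11.33 on wild-type replicate 2 against 7.01 to 9.96 on the other arrays and a median difference of -0.37 log2. Fewer cells of a type and less RNA per cell cannot be told apart in such bulk RNA. The file has no detection flags, so no gene could be called absent.

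No ErbB gene was found to differ between Rarb-null and wild-type pads beyond the spread between arrays. In limma, 0 of the 23 probe sets and 0 of the 45037 tested (0%) reached an adjusted p under 0.05. At an unadjusted p under 0.05 the count was 0 of 23, where the share over all probe sets was 5.22%. The smallest adjusted p in limma among the 23 was 0.908. Over the brightest probe set of each of the 10 genes, 5 means were above and 5 below wild type, with a median difference of 0.01 log2 (-0.00019 over all probe sets). The groups did not overlap at 1 of the 23 probe sets, against 10.4% over all, and this was a Tgfa probe set. With 3 arrays against 3, an exact two-sided permutation test of a single gene cannot give a p under 0.1. The 95% interval excluded a 2-fold difference in signal in either direction at 21 of the 23 probe sets, or 91.3% against 93.2% of all. The exceptions were Areg and the brightest Erbb3 probe set. Of the 23, however, 8 were among the dimmest 40% of all probe sets, where RMA compresses differences. Above that level the count was 13 of 15, or 86.7%.

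**Figure D1:**
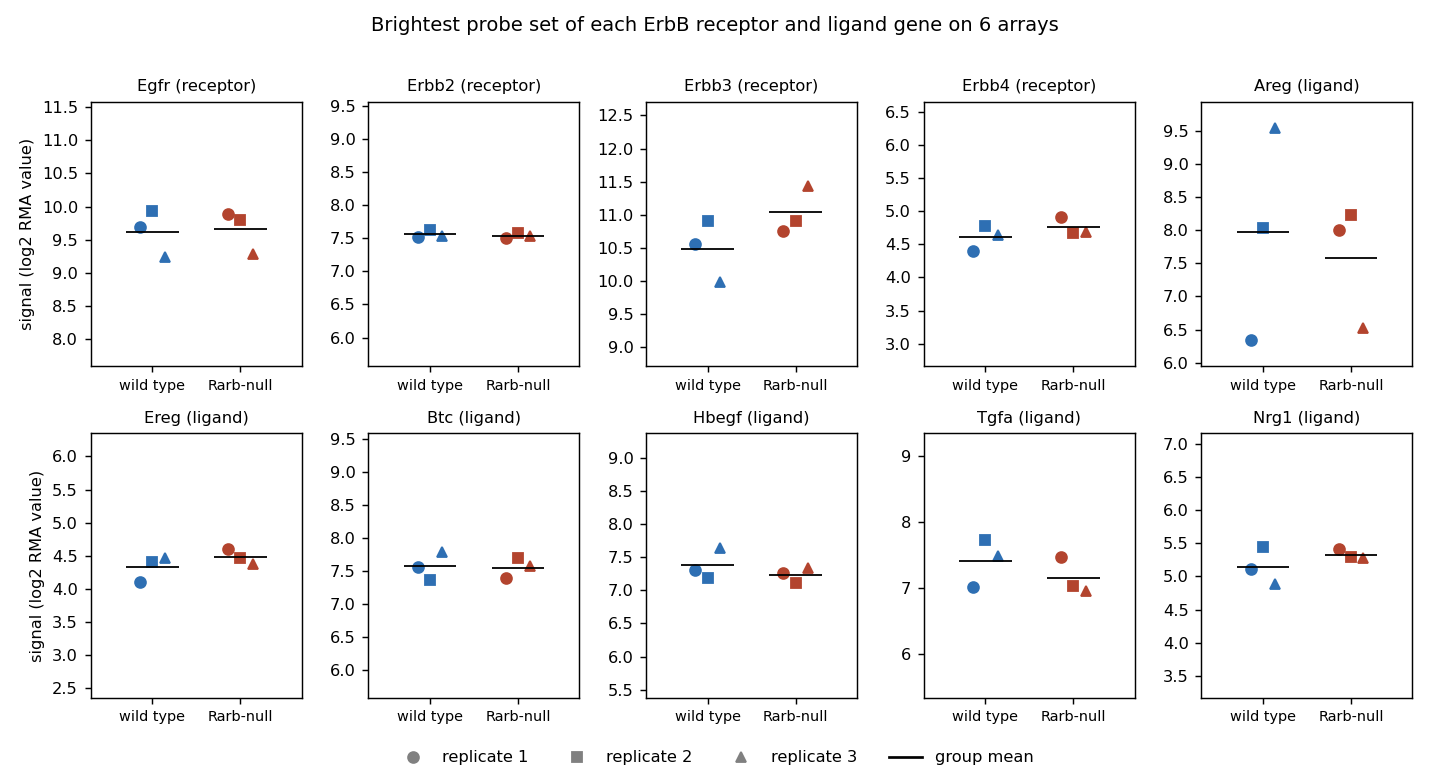
Signal (log2 RMA value) of the brightest probe set of each of the 10 genes on the 3 wild-type (blue) and 3 Rarb-null (red) arrays, with symbols for the replicate and a bar for the group mean; every panel spans 4 log2 units, so spread can be compared between panels. Areg runs from 6.34 to 9.55 and Erbb3 from 9.98 to 11.44, the other 8 genes span less than 1 log2 unit, and the genotypes overlap in every panel.

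Among the receptors, Egfr gave near-equal means in both genotypes. Egfr encodes the EGF receptor, and its brightest probe set (1435888_at) read 9.88, 9.80 and 9.28 on Rarb-null and 9.68, 9.93 and 9.24 on wild-type arrays. The third replicate was the lowest array of each genotype, and the groups overlapped throughout. Group means were 9.65 ± 0.33 and 9.62 ± 0.35 (SD, n = 3 each) and differed by 0.04 log2 (95% interval, -0.50 to 0.57; adjusted p = 0.995 in limma). The 6 other Egfr probe sets differed by -0.18 to 0.09 log2, 2 with a mean above wild type and 4 below, and their ranges over the 6 arrays were 0.16 to 0.50 log2. The largest of these differences, at 1424932_at, was -0.18 log2, with 8.36, 8.22 and 8.15 on Rarb-null and 8.50, 8.50 and 8.25 on wild-type arrays. Here wild-type replicate 3 lay inside the Rarb-null range and the other two wild-type arrays above it. The sign for Egfr was thus not shared by its probe sets, and the mean over all 7 gave -0.03 log2.

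Erbb2, the gene that the sample descriptions name, was the flattest of the 10. Its single probe set (1424919_at) read 7.50, 7.58 and 7.53 on Rarb-null and 7.53, 7.63 and 7.53 on wild-type arrays. No array stood out in either genotype: the range was 0.13 log2, and 98.7% of all probe sets had a wider one. Group means were 7.54 ± 0.04 and 7.56 ± 0.06 (SD, n = 3 each) and differed by -0.02 log2 (95% interval, -0.25 to 0.20; adjusted p = 0.991 in limma). The sources used here do not say whether this probe set would read a transgene, so its even signal says nothing on whether the mice carried one.

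Erbb3, a neuregulin receptor gene, gave the largest difference of means among the 10 genes. Its brightest probe set (1434606_at) read 10.76, 10.90 and 11.44 on Rarb-null and 10.56, 10.91 and 9.98 on wild-type arrays. Rarb-null replicate 3 was the highest and wild-type replicate 3 the lowest, while wild-type replicate 2 lay within the Rarb-null range. Group means were 11.03 ± 0.36 and 10.48 ± 0.47 (SD, n = 3 each), which is 1.47-fold or 0.55 log2 (95% interval, -0.09 to 1.19; unadjusted p = 0.0802, adjusted p = 0.908 in limma). The difference was 0.30 log2 without wild-type replicate 3 and 0.77 log2 without wild-type replicate 2, where the unadjusted p in limma was 0.0232 and the adjusted p 0.423. The other Erbb3 probe set (1452482_at) was among the dimmest 40% of all probe sets and had the opposite sign, at -0.07 log2, with wild-type replicate 3 as its highest array. Of 18 mammary epithelial markers, 15 had a higher Rarb-null mean (median 0.35 log2). An unadjusted p under 0.05 in limma was reached by 2, or 11.1% against 5.22% of all probe sets. These were Esr1 at 0.30 log2 and the claudin gene Cldn4 at -0.69 log2. The list mean of the 18 markers ran from 10.86 to 11.07 on Rarb-null and from 9.93 to 11.26 on wild-type arrays. Wild-type replicate 3 was lowest for 12 of the 18 and for Erbb3, but Rarb-null replicate 3, highest for Erbb3, had the lowest list mean of its genotype. Without wild-type replicate 3 the mean difference of the list was 0.09 log2 in place of 0.41 log2. Brown fat markers were highest on Rarb-null replicate 3 as well, with a list mean of 10.98 there against 6.76 to 8.33 on the other arrays. They were lowest on Rarb-null replicate 2 (6.76) and wild-type replicate 2 (7.01), where Erbb3 read 10.90 and 10.91. All 6 had a higher Rarb-null mean (median 0.70 log2), and 0 had an unadjusted p under 0.05 in limma. The list means of Rarb-null replicates 1 and 2, 8.13 and 6.76, were not above the wild-type range of 7.01 to 8.33. The part of either list in the Erbb3 values was not tested.

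Erbb4, another neuregulin receptor gene, was read by dim probe sets only. All 3 of its probe sets were among the dimmest 40%, where RMA compresses differences. The brightest (1447043_at) read 4.91, 4.68 and 4.69 on Rarb-null and 4.41, 4.78 and 4.65 on wild-type arrays, with Rarb-null replicate 1 highest, wild-type replicate 1 lowest and the groups overlapping. The difference was 0.15 log2 (95% interval, -0.17 to 0.47; adjusted p = 0.940 in limma), and the other 2 probe sets differed by 0.09 and -0.08 log2.

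Among the ligands, Areg varied most between arrays and did not follow genotype. Areg encodes amphiregulin, and its single probe set (1421134_at) read 8.01, 8.23 and 6.52 on Rarb-null and 6.34, 8.03 and 9.55 on wild-type arrays. Each genotype held an array under 7 and an array over 8, and the extremes were both wild type, replicate 3 being 9.21-fold above replicate 1. The range of 3.20 log2 was exceeded by 0.286% of all probe sets. Group means were 7.59 ± 0.93 and 7.97 ± 1.60 (SD, n = 3 each) and differed by -0.39 log2 (95% interval, -2.28 to 1.51; adjusted p = 0.977 in limma). A 2-fold difference between genotypes in either direction was therefore not detectable for Areg with these arrays. The sign turned to 0.40 log2 without wild-type replicate 3 and to 0.15 log2 without Rarb-null replicate 3, and the difference was -1.20 log2 without wild-type replicate 1.

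Of the 10 genes, 6 had an entry in the RefSeq table of promoters (GRCm38.p6, 250 bases before to 50 after a gene's start): Egfr, Erbb2, Erbb4, Areg, Btc and Tgfa. The Areg promoter is shown because Areg carries the widest spread here and is known as a hormone- and cAMP-responsive gene. It lies on the plus strand at chr5:91139349-91139648, and the capitals mark a cAMP response element, TGACGTCA, whose first base lies 61 bases before the start, and a TATA box, TATAAAA, whose first base lies 31 bases before it.

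Areg promoter: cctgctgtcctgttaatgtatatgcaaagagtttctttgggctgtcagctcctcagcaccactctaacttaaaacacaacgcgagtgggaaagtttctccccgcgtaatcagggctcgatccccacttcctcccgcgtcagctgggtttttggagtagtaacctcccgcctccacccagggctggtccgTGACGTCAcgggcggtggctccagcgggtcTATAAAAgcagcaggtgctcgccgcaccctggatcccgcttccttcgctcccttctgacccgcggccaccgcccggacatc

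On both strands, the letters TGACGTCA were found in 1.79% of the 32851 promoters in the table and in 1 of the 6, that of Areg. The letters TATAAAA were found in 5.48% and again in 1 of the 6, Areg. The retinoic acid receptor half-site AGGTCA was found in 16.3% of all promoters and in 0 of the 6, and its direct repeat with a spacing of 5 bases, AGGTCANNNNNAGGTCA, which holds the half-site at both ends, in 3 promoters of the table and in 0 of the 6. A match is a run of letters and not a measured site, and no match says only that these letters are not in these windows.

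The Areg levels did not run with the epithelial markers on every array. Relative to the 6-array mean of the list, the 18 epithelial markers averaged 0.24, 0.29 and 0.08 log2 on the Rarb-null and -0.26, 0.49 and -0.84 log2 on the wild-type arrays. Wild-type replicate 3 thus had the highest Areg signal and the lowest epithelial list mean. The 9 measured cell cycle genes averaged 1.44, 1.50 and -1.72 on Rarb-null and -1.28, 1.52 and -1.47 on wild-type arrays. They were thus high on Rarb-null replicates 1 and 2 and wild-type replicate 2, and low on the others. All 9 had a higher Rarb-null mean (median 0.81 log2), and 0 had an unadjusted p under 0.05 in limma. Areg was over 8 on the 3 arrays with high cell cycle signal, and of the 3 with low cell cycle signal it was under 7 on 2 and at its highest on the third. Of the hormone receptors upstream of Areg in the gland, the oestrogen receptor gene Esr1 read 12.35, 12.54 and 12.29 on Rarb-null and 12.11, 12.23 and 11.95 on wild-type arrays, lowest where Areg was highest. Esr1 was next to its lowest on wild-type replicate 1, where Areg was lowest. The progesterone receptor gene Pgr read 8.03, 8.25 and 9.94 on Rarb-null and 7.64, 8.86 and 8.64 on wild-type arrays. Its highest array, Rarb-null replicate 3, was next to the lowest for Areg, but its lowest, wild-type replicate 1, was also the lowest for Areg. The part of cell makeup or proliferation in the Areg values was not tested.

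**Figure D2:**
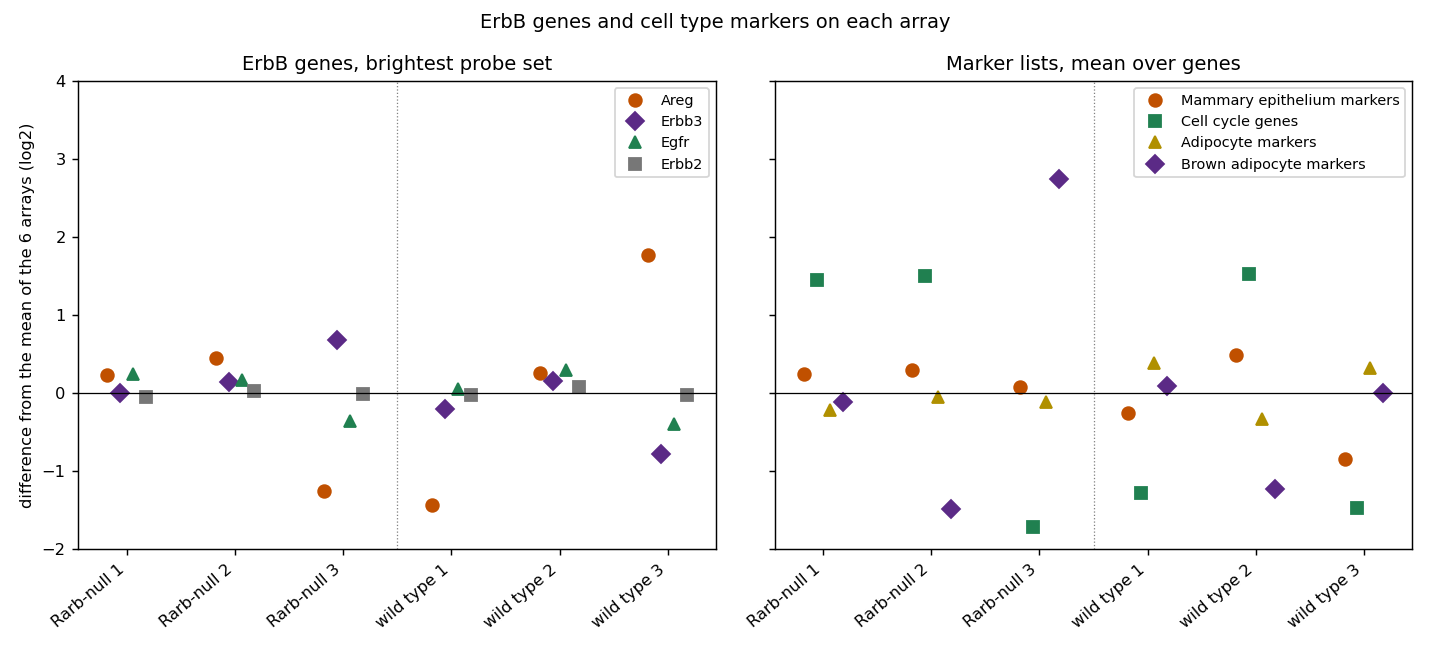
Difference of each array from the mean of the 6 arrays (log2) for the brightest probe sets of Areg, Erbb3, Egfr and Erbb2 (left) and for the mean of 4 marker lists (right), with the dotted line between the genotypes. Wild-type replicate 3 is highest for Areg and lowest for Erbb3 and for the epithelial markers, brown fat markers reach 2.74 on Rarb-null replicate 3, and Erbb2 stays near 0 on every array.

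Ereg and Btc lie beside Areg on chromosome 5, where the RefSeq gene order is Epgn, Ereg, Areg, Btc. Neither had a spread as wide as that of Areg, but RMA compresses dim signals such as that of Ereg. The lowest arrays of Ereg, wild-type replicate 1 and then Rarb-null replicate 3, were also the lowest of Areg. The highest array of Ereg, Rarb-null replicate 1, was not the highest of Areg. Ereg, the epiregulin gene, read 4.59, 4.46 and 4.37 on Rarb-null and 4.11, 4.40 and 4.47 on wild-type arrays at its single probe set (1419431_at), which was among the dimmest 40%. The groups overlapped, and the difference was 0.15 log2 (95% interval, -0.16 to 0.46; adjusted p = 0.940 in limma). Btc, the betacellulin gene, read 7.39, 7.69 and 7.57 on Rarb-null and 7.56, 7.37 and 7.79 on wild-type arrays at its brighter probe set (1435541_at). Its means were 7.55 ± 0.15 and 7.58 ± 0.21 (SD, n = 3 each) and differed by -0.02 log2 (95% interval, -0.36 to 0.32; adjusted p = 0.995 in limma). The other Btc probe set also differed by -0.02 log2 and was among the dimmest 40%. Epgn, the epigen gene and no member of the 10, ranged from 5.04 to 5.63, with wild-type replicate 3 highest as for Areg and Btc.

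Hbegf, the gene of heparin-binding EGF-like growth factor, had its highest signal on wild-type replicate 3 at both probe sets. The brighter (1418350_at) read 7.27, 7.11 and 7.34 on Rarb-null and 7.31, 7.18 and 7.64 on wild-type arrays. The other (1418349_at) read 7.19, 6.89 and 7.01 on Rarb-null and 6.70, 7.01 and 7.45 on wild-type arrays. The groups overlapped at both, with differences of -0.14 log2 (95% interval from -0.49 to 0.20) and -0.02 log2 (from -0.49 to 0.45), and the adjusted p in limma was 0.951 and 0.996. Wild-type replicate 3 was the highest array at 5 of the 10 ligand probe sets and at 3 of the 13 receptor probe sets, against 27.3% of all probe sets.

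Tgfa, the transforming growth factor alpha gene, had lower Rarb-null means at all 3 of its probe sets. The brightest (1421943_at) read 7.46, 7.03 and 6.95 on Rarb-null and 7.01, 7.72 and 7.48 on wild-type arrays, with Rarb-null replicate 1 high and wild-type replicate 1 low in its group. The difference was -0.25 log2 (95% interval, -0.77 to 0.26; adjusted p = 0.935 in limma). It was -0.45 log2 without wild-type replicate 1 and -0.10 log2 without wild-type replicate 2. At 1450421_at the groups did not overlap, with 6.60, 6.77 and 6.65 on Rarb-null and 6.77, 6.83 and 6.81 on wild-type arrays. Rarb-null replicate 2 and wild-type replicate 1 were equal to 2 decimals there, and the difference was -0.13 log2 (95% interval, -0.37 to 0.10; unadjusted p = 0.219, adjusted p = 0.926 in limma). At the third, 1421942_s_at, the difference was -0.0040 log2.

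Nrg1, the neuregulin 1 gene, was measured by 1 probe set (1456524_at), which was among the dimmest 40%. It read 5.42, 5.29 and 5.29 on Rarb-null and 5.11, 5.45 and 4.88 on wild-type arrays. The Rarb-null arrays lay close together, and the wild-type arrays spread around them on both sides. Group means were 5.33 ± 0.07 and 5.15 ± 0.28 (SD, n = 3 each) and differed by 0.18 log2 (95% interval, -0.18 to 0.55; adjusted p = 0.935 in limma). The difference was 0.05 log2 without wild-type replicate 3. Without wild-type replicate 2 it was 0.33 log2, and Nrg1 was then, beside Erbb3, 1 of 2 ErbB probe sets at an unadjusted p under 0.05 in limma, where the share over all probe sets was 9.81%.

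**Figure D3:**
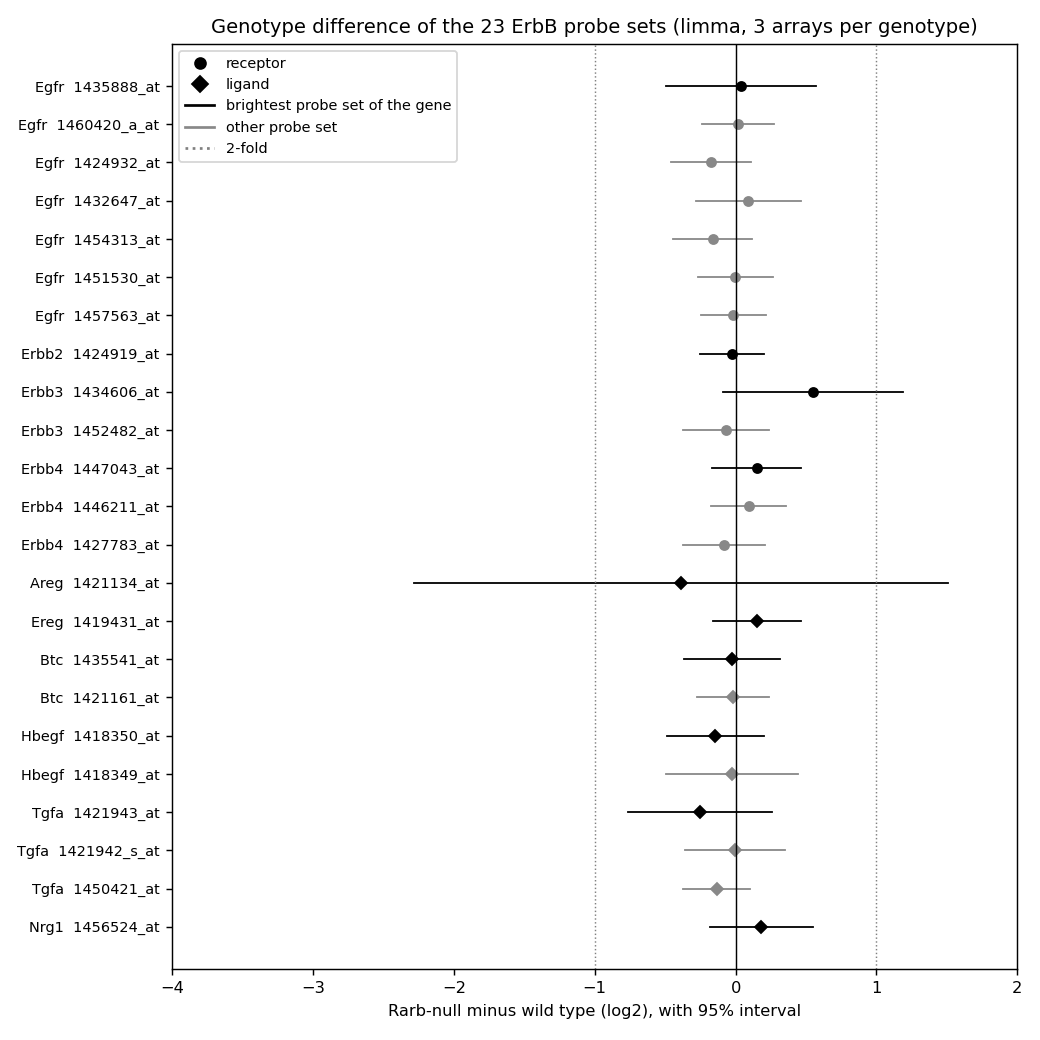
Difference between Rarb-null and wild type (log2) at each of the 23 probe sets, with its 95% interval from limma; circles are receptors, diamonds ligands, black the brightest probe set of a gene, and dotted lines mark a 2-fold difference. Every interval spans 0, and those of Areg (from -2.28 to 1.51) and the brighter Erbb3 probe set (from -0.09 to 1.19) reach past 2-fold.

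The other genes of the pathway gave no call either. Of 4 measured further ligand genes, 2 had a higher and 2 a lower Rarb-null mean (median -0.01 log2), and the 2 with the smallest p were Nrg3, a neuregulin gene, at 0.08 log2 and Egf, the EGF gene, at 0.05 log2. Nrg4, the gene of a neuregulin that brown fat is known to secrete, was picked out after its values were seen for the widest range of the 4: it read 8.70, 8.43 and 9.74 on Rarb-null and 9.64, 8.18 and 9.48 on wild-type arrays. Its high arrays were Rarb-null replicate 3 and wild-type replicates 1 and 3, which were those with low cell cycle signal. Adipocyte marker means on the same arrays were -0.11, 0.38 and 0.33 log2 relative to the 6 arrays, against -0.22, -0.05 and -0.33 on Rarb-null replicates 1 and 2 and wild-type replicate 2. Brown fat marker means, in the same order of arrays, were 2.74, 0.09 and 0.01 log2, against -0.12, -1.49 and -1.24. The part of fat cells, brown or other, in the Nrg4 values was not tested.

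Of 7 genes for shedding and transport of the ligands, 6 had a higher Rarb-null mean (median 0.08 log2) and 0 had an unadjusted p under 0.05 in limma. Adam10, a sheddase gene for Btc and EGF, read 6.85 ± 0.10 against 6.62 ± 0.17 (SD, n = 3 each), and the metalloprotease gene Adam12 read 8.71 ± 0.18 against 8.57 ± 0.21. Adam17, the main sheddase gene for Areg, Tgfa and Hbegf, differed by 0.08 log2.

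Of 16 genes for adaptors and downstream kinases, 8 had a higher and 8 a lower mean (median 0.06 log2). An unadjusted p under 0.05 in limma was found for 2, or 12.5% against 5.22% of all probe sets. Both were higher on Rarb-null arrays, and they were the 2 of the list without overlap, where 10.4% of all probe sets did not overlap. Gab1, the gene of a docking protein that links Egfr to phosphoinositide 3-kinase, read 10.57, 10.85 and 10.68 on Rarb-null and 10.48, 10.45 and 9.99 on wild-type arrays. All Rarb-null arrays lay above all wild-type arrays, by a narrow gap to wild-type replicate 1, and the difference was 0.39 log2 (95% interval, 0.01 to 0.77; adjusted p = 0.908 in limma).

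Of 13 genes that restrain ErbB signalling, 8 had a higher and 5 a lower mean (median 0.01 log2), and 0 had an unadjusted p under 0.05 in limma. Lrig3, of the LRIG family whose member Lrig1 promotes receptor degradation, read 6.66 ± 0.15 against 6.94 ± 0.13 (SD, n = 3 each). It was the only 1 of the 13 without overlap, against 10.4% of all probe sets. Spry4, a Sprouty inhibitor gene, read 6.97 ± 0.15 against 7.23 ± 0.22. Of 9 genes that ErbB signalling can induce, 5 had a higher and 4 a lower mean (median 0.06 log2), again with 0 at an unadjusted p under 0.05 in limma. Egr1, an immediate early transcription factor gene, read 10.41, 10.33 and 10.60 on Rarb-null and 10.65, 10.54 and 11.63 on wild-type arrays. Wild-type replicate 3 was thus highest, as for Areg and Hbegf, but Egr1 was the only 1 of the 9 genes highest there. On that array 2 of the 9 were at their lowest, and the list mean was the lowest of the 6 arrays, at -0.18 log2 relative to their mean. Ier3, another immediate early gene, read 9.72 ± 0.28 against 9.98 ± 0.20.

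**Figure D4:**
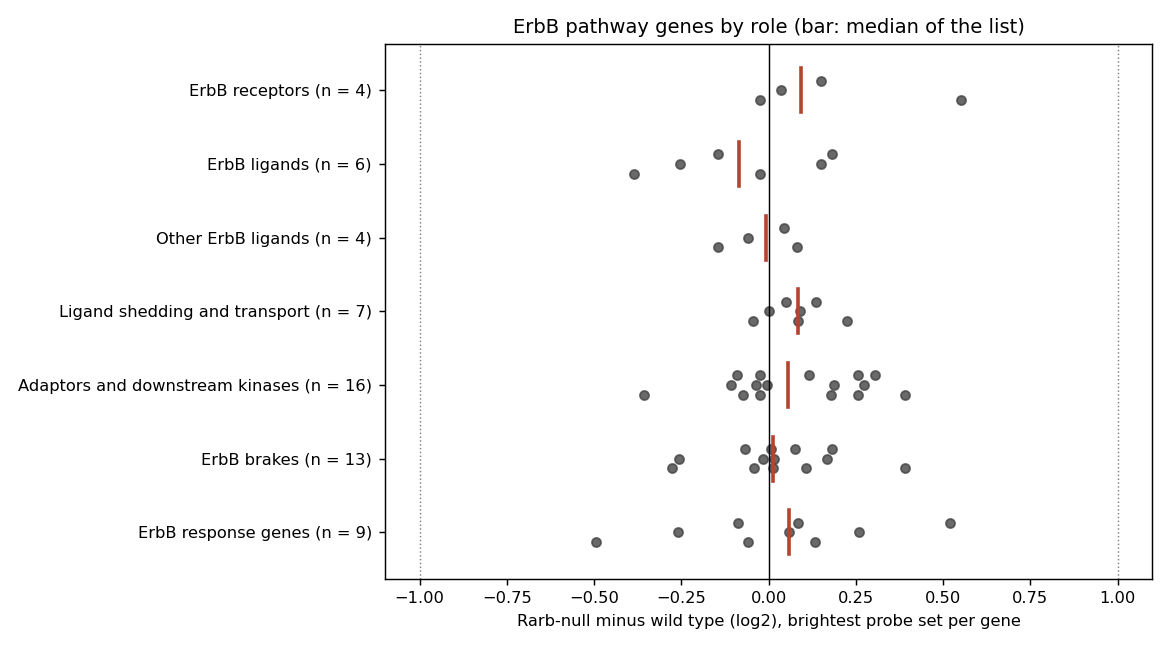
Difference between Rarb-null and wild type (log2) for the brightest probe set of each gene (points), by role in the ErbB pathway, with a red bar at the median of each list. All points lie within 1 log2 unit of 0, and the medians lie between -0.08 for the 6 ligands and 0.09 for the 4 receptors.

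The genes whose levels over the 6 arrays were most like those of Areg, Erbb3 and Tgfa, the 3 of widest range, were taken from 16469 other genes by the root mean square difference between profiles centred on their own mean. For Areg the closest was Sftpd, a surfactant protein gene, at 0.41 log2, then Vnn1, a pantetheinase gene, at 0.51, Peg3, an imprinted zinc finger gene, at 0.60 and Pdgfrb, a receptor gene of pericytes and fibroblasts, at 0.64. Sftpd read 7.86, 7.61 and 7.12 on Rarb-null and 6.61, 8.41 and 9.34 on wild-type arrays, with the same highest and lowest array as Areg. For Erbb3 the closest were Ints12 at 0.09 log2 and the interleukin 13 receptor gene Il13ra1, the claudin gene Cldn1 and the phospholipase gene Pla2g4a at 0.10 each. For Tgfa they were Phf11d, the interferon-induced gene Ifitm3 and the mucin gene Muc6 at 0.08 each and Snrpd2 at 0.09. These distances describe 6 arrays and were not tested.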

How the data were processed

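Signal was measured on 6 arrays. The deposited log2 values were made by the authors with RMA (submitters' processing notes). RMA forces arrays to 1 distribution and compresses dim signals. Values ran from 3.25 to 15.3, with array medians from 6.78 to 6.85, and the number of arrays limits the precision. The authors' second deposited table, used for symbols, also holds log2 group means and fold changes, and the authors made its score, the SAM d-score, and its p-value from the 2 groups, per the file headers. Its log2 fold changes matched the differences of group means within 7.4e-06.

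The 64 control probe sets were left out. The genotypes were compared with limma 3.58.1 (lmFit, eBayes) in R 4.3.3 on 45037 probe sets. The fit had no covariates, tests were two-sided, and p-values were adjusted by Benjamini-Hochberg over all 45037. The procedure was also run on simulated data with planted differences, in which probe sets varied independently of each other, unlike the marker lists above. The brightest probe set stood for a gene, after symbols were updated through RefSeq synonyms. Alternatives were median centring, a further quantile normalization, a filter on the lowest 40% by mean, a trended robust prior, array weights, the replicate number as a block, each array left out, and the mean of a gene's probe sets. Named genes were the 10 members, Rarb, the 2 of smallest p in each pathway list, tissue markers, and the 4 genes nearest in profile to the 3 widest-ranging members. Others were named as neighbours, main enzymes or for their range. The result of 1 gene that the rule named is not reported here. Members and lists were chosen with earlier results of these data known. Lists of fibroblast, endothelial, nerve, macrophage, lymphocyte, salivary gland and skin markers had median differences from -0.13 to 0.14 log2. Figures used Python 3.11.15 and matplotlib 3.10.9.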

Additional observations from a re-analysis of the deposited data

How the results depend on the processing

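No alternative gave an ErbB probe set past an adjusted p of 0.05 in limma, and the smallest was 0.423, without wild-type replicate 2. The count over all probe sets at an unadjusted p under 0.05 was 1566 among the 27022 probe sets left by the filter on dim signal, where fewer probe sets were tested. With 1 array left out it ran from 1147 to 4418, against 2351 with all arrays. In the same repeats, 0 to 1 probe sets passed an adjusted p of 0.05, 0 to 2 ErbB probe sets had an unadjusted p under 0.05, and 1 to 4 did not overlap, where 15.6% to 25.2% of all probe sets did not. With 1 array left out, 4 of the 10 genes changed sign: Egfr ran from -0.15 to 0.22 log2, Erbb2 from -0.0447 to 0.00844, Btc from -0.126 to 0.0860 and Areg from -1.20 to 0.40. Areg also turned to 0.0712 log2 with array weights, and Egfr to -0.0305 with the mean of its probe sets. The cause was not tested. The median over the 10 genes, 0.01 log2, also lay on both sides of 0, from -0.04 to 0.16 log2. Of the other genes, Tgfa ran from -0.45 to -0.10 log2, Nrg1 from 0.05 to 0.33, Erbb3 from 0.30 to 0.77, Erbb4 from 0.05 to 0.23, Ereg from 0.04 to 0.22 and Hbegf from -0.24 to -0.01. The epithelial list's mean difference of 0.41 log2 ran from 0.09, without wild-type replicate 3, to 0.76, without wild-type replicate 2.

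The sources used here do not say whether arrays with the same replicate number came from littermates. Same-numbered arrays had correlations of -0.20, 0.45 and 0.29 between their deviations from the group means. Between arrays of different number the correlations ran from -0.54 to 0.38, so these values do not settle the pairing. With the replicate block, 0 probe sets passed an adjusted p of 0.05, 3418 had an unadjusted p under 0.05, and 0 ErbB probe sets did.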
